A study of Homo sapiens with 10 samples.

Results

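Untreated MDA-MB-435 cells were profiled on 2 of the 10 Affymetrix hgu133a arrays of the series, chosen by their titles and by the label that no treatment was given. MDA-MB-435 is an established human cell line that the labels call melanoma. It was long used as a breast cancer line before it was assigned to the melanocyte lineage, so genes of both tissues are described here. The other 8 arrays, 2 a group, are of the same line after 1, 6 or 24 h with hepatocyte growth factor (HGF) or after transduction with integrin beta 4 (ITGB4). The study describes the arrays of a group as biological duplicates. A cell line in culture has no stroma, vessels or blood cells, and 1 line is a model of 1 tumour only.

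Melanocytes are pigment cells that arise from the neural crest. The transcription factors SOX10 and MITF switch on the genes that build the melanosome, the organelle in which the enzyme tyrosinase makes melanin. HGF acts through MET, a receptor tyrosine kinase that passes its signal through adaptor proteins to the ERK kinase cascade, and melanocytes are among the cells known to respond to it.

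The values are the authors' RMA signals on the log2 scale, where a step of 1 is a doubling. Each of 11963 genes was represented by the probe set with the highest mean on the 2 untreated arrays. Probe sets bind their targets with different strength, so an order of genes is an order of signal and not of RNA molecules. A background line was set on each array from 142 genes restricted to tissues such as liver, testis, retina or muscle, at the 95th percentile of their signals. The line lay at 7.21 on replicate 1 and 7.12 on replicate 2, while the background genes had medians of 5.69 and 5.61. A gene counts as above the line when it passed it on both arrays and near background when it passed it on neither. Near background means that the array did not tell the gene from genes of other tissues, not that its RNA was absent.

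On this measure 6071 genes, 50.7% of those measured, were above the line, 5569 were near background and 323 passed it on 1 array only. The median gene had a signal of 7.29 on replicate 1 and 7.27 on replicate 2, close to the line itself. Over a signal of 10 on both arrays were 1130 genes, and over 11 were 458. Genes with several probe sets passed the line more often, 64.7% against 42.9% of genes with 1 probe set, and among the 2787 such genes above the line all probe sets passed in 1211 and a single one in 968.

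**Figure D1:**
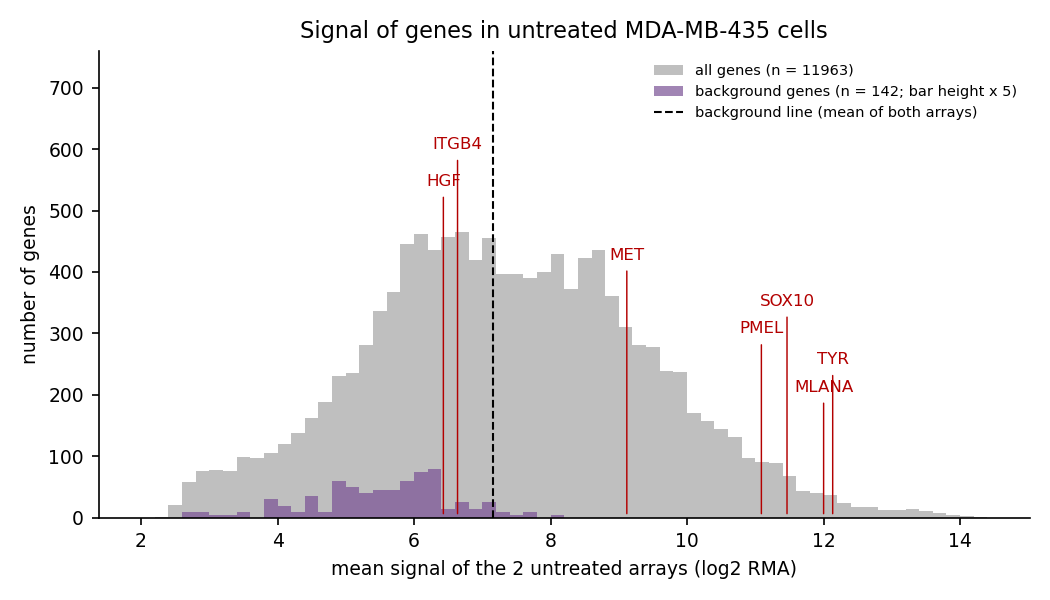
Number of genes (y axis) by mean signal on the 2 untreated arrays (x axis, log2 RMA), for all 11963 genes in grey and for the 142 background genes in purple, drawn at 5 times their number. The dashed line is the mean of the background lines of the 2 arrays. TYR, MLANA, SOX10 and PMEL stand in the upper tail, MET lies between them and the line, and HGF and ITGB4 lie below the line.

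The arrays of ITGB4-transduced cells show how the probe sets of a gene near background read when its transcript is added. ITGB4, an integrin subunit that pairs with ITGA6, had signals of 6.70 and 6.58 in untreated cells, and all 4 of its probe sets were near background. The same probe set read 13.23 and 12.96 on the arrays of ITGB4-transduced cells, so it responds strongly when the transcript is present. Another of the 4 read no more than 5.58 on any of the 8 other arrays, those of transduced cells included. Whether the transduced sequence holds the target of that probe set was not checked.

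The strongest signals came from genes that all growing cells use. The translation factor EEF1A1 led with 14.20 on replicate 1 and 14.23 on replicate 2, ahead of the ribosomal protein gene RPL41 with 14.21 and 14.11 and the glycolytic enzyme GAPDH with 14.08 and 14.19. The tubulins TUBA1B and TUBA1C and the ribosomal protein genes RPS15, RPL37A and RPS10 followed. ACTB, the cytoskeletal actin, had 13.75 and 13.79. VIM, the intermediate filament of mesenchymal and neural crest cells, was 13th of all genes with 13.71 and 13.76. It stood among ribosomal genes and genes such as TPT1 and PPIA, and GNAS, a G protein subunit, was 17th. Many of these genes stand by probe sets whose names mark possible cross-hybridisation. They are EEF1A1, GAPDH, TUBA1B, TUBA1C, RPS10, ACTB, TPT1, PPIA and GNAS, so their signals may hold that of related genes. Of the 20 strongest genes on each array 19 were shared, and of the 1000 strongest 944.

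Genes of the melanosome and of pigment synthesis had some of the strongest signals outside these. Of 18 measured, 15 were above the line, which is 83.3% against 50.7% of all genes, and their median of 10.21 lay over 91.4% of all genes. GPNMB, a glycoprotein of the melanosome, led the list with 12.72 on replicate 1 and 12.63 on replicate 2. TYR, tyrosinase itself, had 12.17 and 12.10, and its relative TYRP1 had 11.96 and 11.91. TYR lay over 98.9% and TYRP1 over 98.6% of genes, and each differed by less than 0.1 between the arrays.

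PMEL, which forms the fibrils on which melanin is laid down, was less steady, with 11.48 on replicate 1 and 10.70 on replicate 2, a mean of 11.09 ± 0.55 (SD, n = 2). MLANA, the melanosome protein known as Melan-A, had 12.24 and 11.76. The 2 genes had the largest gaps between the arrays in this list, with lower signals on replicate 2. PMEL was lower on replicate 2 in each of the other groups too, with 11.79 and 11.15 at 1 h, 11.37 and 10.52 at 6 h, 11.22 and 10.68 at 24 h and 10.93 and 10.66 in transduced cells. A second MLANA probe set gave 9.59 and 9.28, well below the first but over the line on both arrays.

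The genes for moving melanosomes were above the line as well. RAB27A, the small GTPase that ties the melanosome to its motor, had 12.05 and 11.96, and all 4 of its probe sets passed. The name of the probe set that stands for RAB27A marks possible cross-hybridisation. The RAB27A partners MLPH, the linker, and MYO5A, the myosin motor, had 10.04 and 9.76, and 10.03 and 10.01. MYO5A passed the line by 1 of its 2 probe sets. RAB38, which sorts pigment enzymes to the melanosome, had 10.94 and 10.93. GPR143, a receptor in the melanosome membrane, had 11.20 and 11.18. Each of these genes differed by less than 0.3 between the arrays.

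The lower end of the list held genes just over the line or under it. MC1R, the melanocortin receptor that stimulates pigment synthesis, had 7.49 and 7.40, little over the line. The transporters OCA2, with 6.85 and 6.94, and SLC45A2, with 6.37 and 6.27, were near background on both arrays. TRPM1, an ion channel of melanocytes and retina, was lowest with 5.05 and 4.92. Of the 18 genes, 15 had a lower signal on replicate 2, as did 6302 of all 11963 genes and 100 of the 142 background genes.

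All 8 measured transcription factors of the melanocyte were above the line, against 50.7% of all genes, with a median of 9.98. All but MITF have several probe sets, and of all genes with several 64.7% were above the line. SOX10 led with 11.53 and 11.40, followed by MITF with 11.16 and 11.19. TFAP2A, a neural crest factor, had 10.53 and 10.57, and SOX9 had 10.33 and 10.12. IRF4, which acts with MITF on TYR, had 9.85 and 9.60, and LEF1, a mediator of Wnt signals, had 9.33 and 9.34. TBX2 had 8.88 and 9.05. PAX3, which acts upstream of MITF, was lowest with 7.54 and 7.37, and only 1 of its 3 probe sets passed the line. IRF4 likewise passed by 1 of 3 probe sets, TBX2 by 2 of 4, and LEF1 and TFAP2A by 2 of 3 each. With the lowest probe set of each gene in place of the highest, 3 of the 8 were above, 37.5% against 42.3% of all genes.

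**Figure D2:**
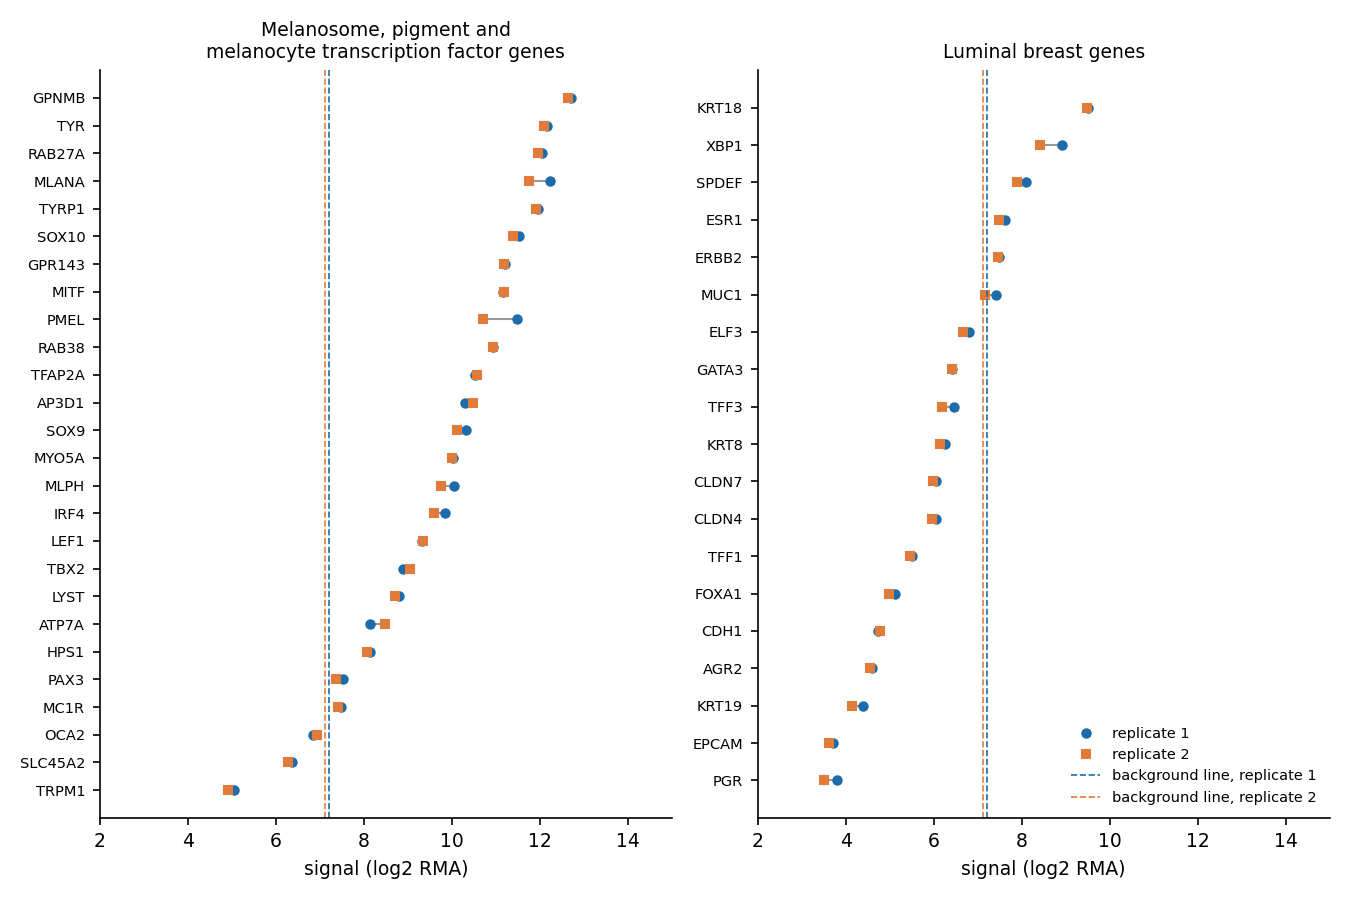
Signal (x axis, log2 RMA) of the 26 melanosome, pigment and melanocyte transcription factor genes (left) and the 19 luminal breast genes (right) on untreated replicate 1 (blue circles) and replicate 2 (orange squares), ordered by mean. Dashed lines are the background lines of the 2 arrays. On the left 23 genes lie over the line of each array, from MC1R up to GPNMB, and on the right 6 do, from MUC1 up to KRT18.

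MITF binds the motif CATGTG, the core of the M-box. The 300 bases around the start of each gene, 250 before and 50 after, were searched for it on both strands in RefSeq promoters of GRCh38.p14. It was found in 8 of the 13 melanosome and pigment genes with a promoter in that table (61.5%), against 11.2% of all 27305 promoters. Both the list and the motif were chosen from what is known of pigment genes, so this share is not a result about these cells. For genes on the array the share was 7.9%, with 6.28% for genes above the line and 9.84% for genes near background. The 8 melanosome and pigment genes with the motif were TYR, TYRP1, OCA2, GPR143, TRPM1, GPNMB, MC1R and LYST. OCA2 and TRPM1 were near background although they carry it, and MLANA and RAB27A had strong signals without it in this window. None of the 5 melanocyte transcription factors with a promoter in the table held it. The stretches before the start site are given for the 4 genes with 2 matches each, with the motif or its reverse complement CACATG in capitals. These 4 were picked with their signals known, all over 11, and a link of the motif to signal was not tested. TYR is shown from chr11:89177755-89177874 (plus strand), TYRP1 from chr9:12693225-12693384 (plus strand), GPR143 from chrX:9765848-9765927 (minus strand) and GPNMB from chr7:23246635-23246774 (plus strand).
TYR: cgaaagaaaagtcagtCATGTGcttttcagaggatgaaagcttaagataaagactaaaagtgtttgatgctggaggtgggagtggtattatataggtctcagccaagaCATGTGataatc
TYRP1: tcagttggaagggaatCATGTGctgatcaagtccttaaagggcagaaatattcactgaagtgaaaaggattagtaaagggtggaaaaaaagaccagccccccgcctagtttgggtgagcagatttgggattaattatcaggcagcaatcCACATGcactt
GPR143: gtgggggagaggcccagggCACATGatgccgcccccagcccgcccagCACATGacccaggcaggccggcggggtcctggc
GPNMB: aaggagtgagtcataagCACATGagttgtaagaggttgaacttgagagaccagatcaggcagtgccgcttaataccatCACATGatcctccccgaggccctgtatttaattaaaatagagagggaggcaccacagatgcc
The first match began 104 bases before the start site in TYR and the second 12 bases before it. In TYRP1 the matches began 144 and 11 bases before the start, in GPR143 61 and 33, and in GPNMB 123 and 62.

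Surface and secreted genes of the neural crest and of melanoma passed about as often as all genes, with 9 of 17 above the line (52.9% against 50.7%), 2 over it on 1 array and 6 near background. S100A1, a calcium-binding protein, had 10.49 and 10.32, and EDNRB, the endothelin receptor of melanoblasts, had 10.31 and 10.30. The name of the EDNRB probe set marks possible cross-hybridisation, and 2 of the 3 EDNRB probe sets passed the line. The secreted melanoma marker MIA had 10.37 and 10.10, and S100B, the S100 protein used in melanoma diagnosis, had 9.79 and 9.54. Other markers of the lineage were not told from background. KIT, the receptor melanoblasts need to survive, had 5.10 and 5.04, CSPG4, the melanoma proteoglycan, had 5.37 and 5.48, and NGFR, a mark of neural crest stem cells, had 5.87 and 5.64.

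Of 19 luminal breast genes, 6 were above the line (31.6% against 50.7% of all genes) and the median was 6.20, below that of all genes. The estrogen receptor ESR1 passed with 7.62 and 7.48, but by 1 of its 9 probe sets only, one whose name marks possible cross-hybridisation. KRT18, a keratin of simple epithelia, had 9.52 and 9.48 by its single probe set of the same kind, while its partner KRT8 had 6.25 and 6.15. XBP1, a factor of secretory cells that also belongs to the stress response, had 8.91 and 8.41. SPDEF had 8.09 and 7.89, also by a probe set marked for possible cross-hybridisation, and 3 of its 5 probe sets passed. ERBB2 and MUC1 were close to the line with 7.48 and 7.47, and 7.42 and 7.16. Without probe sets marked for possible cross-hybridisation or for several transcripts, 1 of 12 measured luminal genes was above the line (8.3% against 45.8% of all genes).

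The other 13 luminal breast genes, KRT8 among them, were near background on both arrays. The progesterone receptor PGR had 3.81 and 3.51, and the adhesion protein EPCAM had 3.71 and 3.62. KRT19, AGR2 and the junction protein CDH1 had 4.39 and 4.14, 4.59 and 4.56, and 4.73 and 4.78. FOXA1 and GATA3, the factors that open estrogen receptor sites, had 5.11 and 4.99, and 6.41 and 6.41. The mucosal peptides TFF1 and TFF3 had 5.51 and 5.47, and 6.46 and 6.19, and the remaining near-background members ELF3, CLDN7 and CLDN4 lay between 5.95 and 6.81. Of 11 basal and myoepithelial genes only SFN passed (9.1% against 50.7% of all genes), with 8.26 and 8.21. KRT5 had 6.38 and 6.27 and KRT14 had 4.76 and 4.52. None of the 9 milk genes passed, and PIP, the strongest, had 7.01 and 7.10.

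Markers of cells that a culture of 1 line should lack were mostly near background. Above the line were 2 of 17 fibroblast genes, 2 of 11 endothelial genes, 1 of 16 leukocyte genes and 3 of 15 neuron and glia genes. The exceptions were the proteoglycan DCN with 8.33 and 8.31, COL1A1 with 7.61 and 7.56, the TGF-beta co-receptor ENG with 8.60 and 8.49, the receptor TEK with 7.57 and 7.34, and the signalling adaptor LCP2 with 9.30 and 8.95. The probe sets that stand for DCN and COL1A1 are marked for possible cross-hybridisation. The same mark is on those that stand for RAB27A, EDNRB, MET and TUBB3. Among neural genes TUBB3, a tubulin of neurons and of many tumours, had 10.57 and 10.86, the synaptic vesicle protein SYP had 7.77 and 7.89, and MAP2, which binds microtubules, had 7.29 and 7.67. Without probe sets marked for possible cross-hybridisation or for several transcripts, 1 of 11 measured neuron and glia genes was above the line (9.1% against 45.8% of all genes). Of markers named after their values were seen, PECAM1 and VWF of endothelium, PTPRC of leukocytes, COL3A1 of fibroblasts and GFAP of astrocytes had signals between 5.19 and 5.98 on both arrays.

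Among 51 receptor tyrosine kinases 15 were above the line, 29.4% against 50.7% of all genes, and the median was 6.26. The receptors with the strongest signals were RYK, a Wnt receptor, with 9.51 and 9.72, ERBB3 with 9.31 and 9.25, TYRO3 with 9.05 and 9.32, DDR2, a collagen receptor, with 9.12 and 9.22, MET with 9.38 and 8.86, and EPHA3 with 8.95 and 9.02. RYK was first on both arrays, and ERBB3 and DDR2 were ahead of EPHA3 on both. MET was ahead of the other 4 on replicate 1 and behind them on replicate 2, and TYRO3 passed ERBB3 and DDR2 on replicate 2 only, so the places of MET and TYRO3 are not settled beyond the spread of the 2 arrays. EPHB4, with 8.08 and 8.23, and IGF1R, the receptor of insulin-like growth factor, with 8.03 and 8.10, came next. The other members above the line, AATK, NTRK3, ERBB2, TEK, EPHB3, INSR and RET, lay between 7.26 and 7.88. ERBB3 and TYRO3 each passed by 1 of 2 probe sets, and EPHA3 and IGF1R by 2 of 3, while all 3 of RYK passed.

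MET itself is the receptor of the ligand used in the rest of the series. Its 4 probe sets differed, with 9.38 and 8.86, 8.97 and 8.74, and 8.55 and 8.43 for those above the line, and 6.59 and 6.03 for one near background. Its representative probe set had a mean of 9.12 ± 0.36 (SD, n = 2), over 80.3% of genes. This probe set and the one with 8.97 and 8.74 are marked for possible cross-hybridisation. The one with 8.55 and 8.43 is not. All 4 probe sets of MET read higher on replicate 1. In the other groups the representative probe set had 8.81 and 8.64 at 1 h, 8.94 and 8.72 at 6 h, 8.78 and 8.39 at 24 h, and 9.52 and 9.12 in transduced cells on replicates 1 and 2. It was lower on replicate 2 in every group, and each HGF array lay below the untreated array of the same number, a difference that was not tested here.

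The receptors near background included several with known roles in melanoma or melanocytes. EGFR had 6.88 and 6.91 by its highest probe set, and all 6 were near background. AXL, a receptor of GAS6 like TYRO3, had 6.82 and 6.73, and MERTK, the third member of that family, had 5.23 and 4.94. FGFR1 had 6.60 and 6.65 with none of its 6 probe sets above the line, PDGFRA had 6.75 and 6.69 and PDGFRB had 6.10 and 6.15. The lowest signal of the family was that of EPHA7, with 2.49 and 2.60. FGFR2, ALK and LTK, with signals between 6.87 and 7.01, were the nearest under the line. With the line at the 99th percentile of the background genes, or with the mean of a gene's probe sets, 9 of the 51 receptors were above it.

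**Figure D3:**
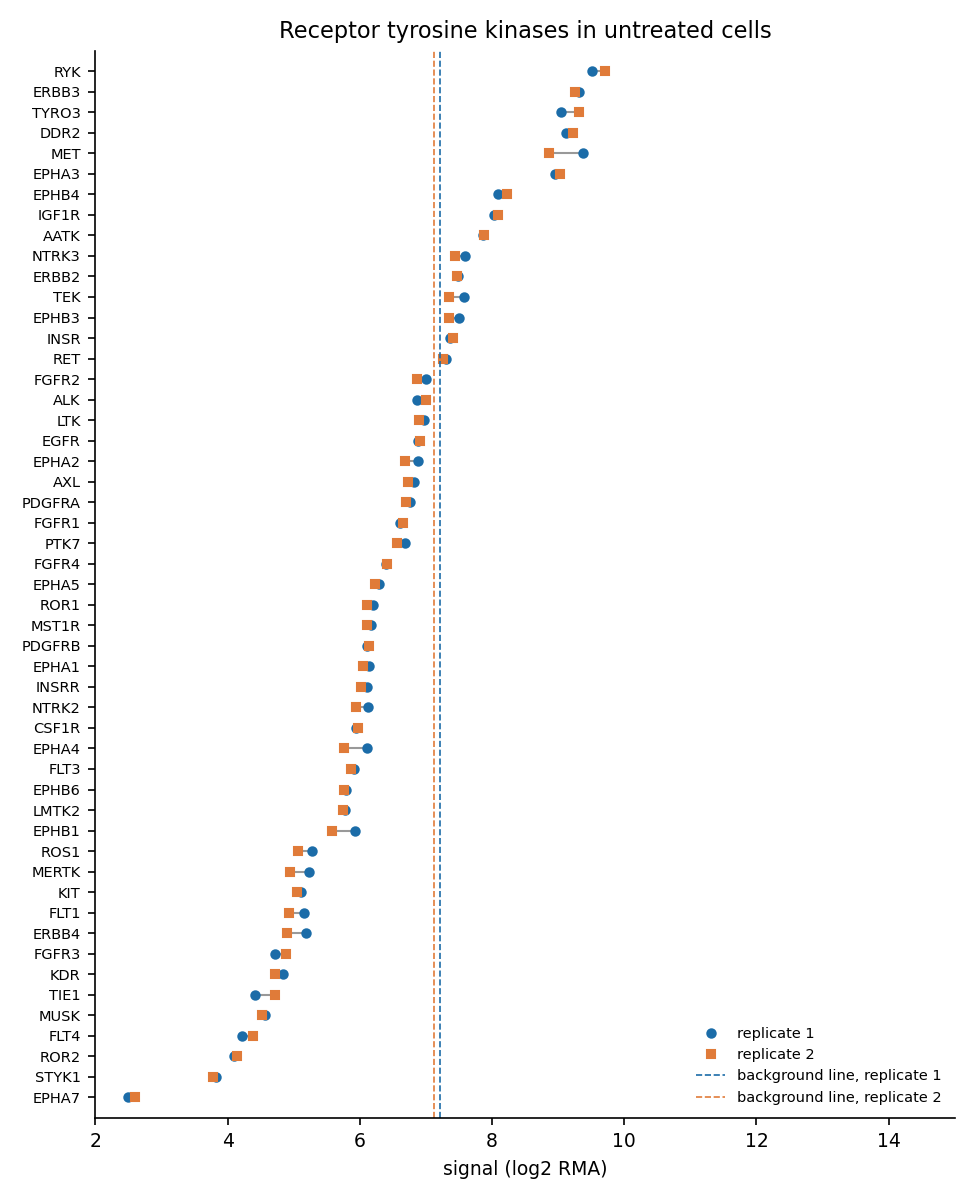
Signal (x axis, log2 RMA) of the 51 receptor tyrosine kinases on untreated replicate 1 (blue circles) and replicate 2 (orange squares), ordered by mean, with the background line of each array dashed. The 15 genes from RYK down to RET lie over both lines, MET is 5th, and 36 lie under both.

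The ligand of MET was near background. HGF had 6.43 on both arrays by its highest probe set, and none of its 5 probe sets passed the line. Of the 8 genes of the ligand, its activators and its inhibitors, only ST14, a membrane protease that activates HGF, was above the line on both arrays, with 7.87 and 7.79. That is 12.5% of the list, against 50.7% of all genes. TMPRSS2 passed on replicate 2 alone, with 7.00 and 7.17, so that without replicate 1 the count was 2. HGFAC, HPN and PLAU, the other activating proteases, and SPINT1 and SPINT2, their inhibitors, had signals between 5.42 and 6.66.

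Downstream of MET most genes were above the line. Of 16 adaptors and co-receptors 13 passed, 81.2% against 50.7% of all genes, with a median of 8.87. With the lowest probe set of each gene 8 of the 16 passed. The list was led by the co-receptor CD44 with 11.49 and 11.56 and the adaptor SHC1 with 10.54 and 10.51. PTPN11, the phosphatase SHP2, had 10.16 and 10.21, and GRB2, which links receptors to RAS, had 8.92 and 9.02. The docking protein GAB1 and the exchange factor SOS1 passed on replicate 1 only, with 7.33 and 6.99, and 7.24 and 6.83, and the ubiquitin ligase CBL was near background with 6.10 and 6.05.

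In the ERK pathway 14 of 15 genes were above the line, 93.3% against 50.7% of all genes (median 8.77). The kinases MAP2K2 and MAP2K1 had 11.24 and 11.40, and 9.72 and 9.82, and the kinase MAPK3, known as ERK1, had 9.39 and 9.60. Genes that ERK signalling is known to induce were above the line without added HGF. The factor ETV5 had 10.72 and 10.67, the inhibitor SPRY4 had 9.04 and 8.75, and the phosphatases DUSP4 and DUSP6 had 8.84 and 8.86, and 8.61 and 8.37. CCND1, cyclin D1, was the member near background, with 7.16 and 6.92.

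Of 43 ligands of receptor tyrosine kinases 13 were above the line, 30.2% against 50.7% of all genes. PTN, pleiotrophin, had 9.58 and 9.68, and PROS1, a ligand of TYRO3, had 9.51 and 9.57. VEGFA, the endothelial growth factor, had 9.45 and 9.05 with all 4 probe sets above the line. GAS6, the other ligand of TYRO3, had 8.17 and 8.06 by 1 of 2 probe sets, and NRG1, a ligand of ERBB3, had 7.65 and 7.44 by 1 of 6. TYRO3 and both these ligands were thus above the line together, though TYRO3, like GAS6, passed by 1 of 2 probe sets only. The ligands with the lowest signals were EREG with 2.58 and 2.67 and BTC with 2.73 and 2.73, both ligands of EGFR.

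Integrins, the receptors for the extracellular matrix, had 9 of 23 subunits above the line, 39.1% against 50.7% of all genes. ITGB1, the common beta subunit, had 10.92 and 11.09 by 1 of its 5 probe sets, and ITGAE had 10.90 and 10.89. ITGB5 had 9.52 and 9.89. ITGA6, the partner of ITGB4 and ITGB1, had 9.49 and 9.20, and ITGA5 had 9.13 and 9.25. ITGB3, an integrin linked to invasive melanoma, was near background with 7.08 and 6.93, and none of its 7 probe sets passed. Lowest were ITGA4, with 4.91 and 4.99, and ITGA1, with 2.60 and 2.49.

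Melanoma cultures have been divided into a proliferative state rich in MITF and pigment genes and an invasive state rich in AXL and matrix genes. Of 19 measured genes of the proliferative state, 16 were above the line, 84.2% against 50.7% of all genes. The median of the 19 was 11.09, which lay over 96.2% of all genes. The list shares 12 of its genes with the melanocyte and melanoma lists given earlier, so it is not a separate reading. Among the others, TBC1D16 had 11.59 and 11.12, CAPN3, a melanocyte calpain, had 11.33 and 10.91, and PIR had 11.15 and 10.96. PLXNC1, with 5.79 and 5.44, was near background. Of 17 genes of the invasive state 6 were above the line (35.3%), and the median of the 17 was 6.89. The 6 were TNC, the matrix protein tenascin C, with 11.90 and 11.75, TGFBI with 10.28 and 10.50, LOXL2, TPM1, FN1 and ZEB1. WNT5A was lowest with 3.20 and 3.53, and the YAP target CCN2 had 5.23 and 4.58.

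Cadherins and keratins, which mark epithelia and their loss, were mostly near background. Of 14 cadherins only CDH2, the neural cadherin, with 9.14 and 9.37, and CDH18, with 7.52 and 7.50, were above the line. Of 12 regulators and markers of mesenchymal transition 6 passed, about the share of all genes (50.7%). SNAI2, a factor of the neural crest, had 10.85 and 10.99, ZEB1 had 7.43 and 7.85, and SNAI1, TWIST1 and ZEB2 were near background with 6.73 and 6.66, 6.58 and 6.78, and 5.03 and 5.15. The epithelial splicing factor ESRP1 was over the line with 7.58 and 7.23, while GRHL2 and OVOL2 were under it. Of 24 keratins 3 passed (12.5%), namely KRT10 with 10.38 and 10.22, KRT18 and KRT83.

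Among 25 SOX and PAX factors 7 were above the line, 28.0% against 50.7% of all genes. After SOX10 and SOX9 came SOX4 with 9.28 and 9.38, PAX8 with 8.55 and 8.47 by 1 of 8 probe sets, SOX13 with 8.20 and 8.31, SOX15 and PAX3. SOX2 had 6.31 and 6.26, and the lowest was SOX30 with 3.27 and 3.30.

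Antigen-presenting genes of class I were strong. Of 14 genes 13 passed, 92.9% against 50.7% of all genes, with a median of 10.64. The strongest was B2M, the light chain of the class I molecule, with 12.67 and 12.52. The class I chains share sequence, so HLA-C, with 11.90 and 11.83, and HLA-B, with 11.01 and 10.63, may each hold signal of the others. The transporters TAP1 and TAP2 had 8.62 and 8.58, and 8.41 and 8.20. Of 13 class II genes 4 passed (30.8%), the strongest being HLA-DPB1 with 8.13 and 8.07 and HLA-DMA with 8.47 and 7.71. The class II regulator CIITA was near background with 6.81 and 6.71.

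Cancer-testis antigens, genes of the germ line that tumours can switch on, were near background for the most part. Above the line were 6 of 23, 26.1% against 50.7% of all genes. CTAG2 had 11.62 and 11.56, MAGEA6 had 11.57 and 11.54, MAGEA12 had 10.80 and 10.88, PRAME had 9.93 and 10.03 and MAGEA1 had 9.41 and 9.63. DDX43, with 7.55 and 7.32, was little over the line. CTAG2 and the MAGEA genes have near-identical relatives, so which member gave the signal is uncertain. MAGEC2, MAGEA10, MAGEA4 and GAGE1 were near background, with signals between 4.39 and 6.41.

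**Figure D4:**
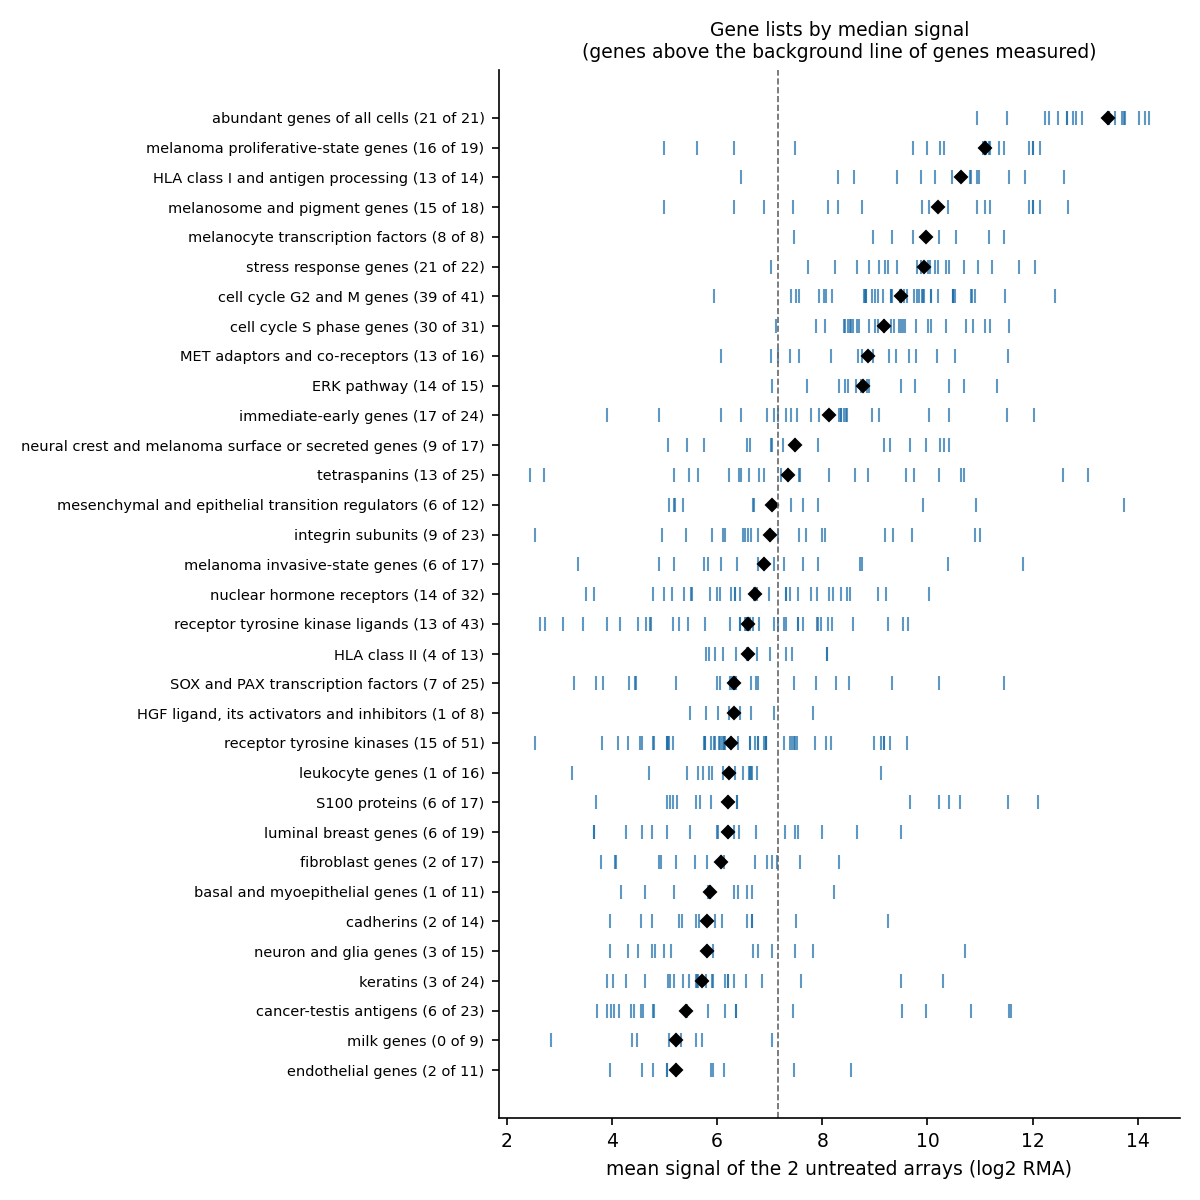
Mean signal on the 2 untreated arrays (x axis, log2 RMA) of the genes of each list. Each tick is a gene, the diamond is the list median, the dashed line is the mean background line, and the numbers beside each name give the genes above the line of those measured. Ubiquitous genes, with a median of 13.44, lead the order, proliferative-state genes (11.09), class I genes (10.64) and melanosome genes (10.21) follow, and endothelial and milk genes are lowest.

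The 2 untreated arrays agreed closely. Across the 11963 genes, which are not independent replicates, Pearson's r was 0.996 and Spearman's rho 0.996. The difference between the arrays had an SD of 0.188, and 98.3% of genes differed by less than 0.5. The SD was between 0.165 and 0.198 in each of 10 bins of genes by signal, so weak and strong genes differed about equally between the arrays. Only 3 genes differed by more than 1, all lower on replicate 2. The replicate pairs of the other groups had SDs of 0.253 at 1 h, 0.184 at 6 h, 0.248 at 24 h and 0.285 in transduced cells. Between an untreated array and one of another group the SD was between 0.217 and 0.373.

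Genes of the cell cycle were prominent among those that differed between the untreated arrays. Of the 6071 genes above the line 129 differed by more than 0.5, of which 101 were higher on replicate 2 and 28 on replicate 1. Among the 101 were 36 of the 72 measured genes of the cell cycle lists, and among the 28 there were 0. All 41 genes of G2 phase and mitosis were higher on replicate 2, by 0.16 to 0.93 and by 0.54 in the median, against -0.01 over all genes. The mitotic kinase PLK1 had 8.98 on replicate 1 and 9.64 on replicate 2, the proliferation marker MKI67 had 9.44 and 10.15, and FOXM1, which drives mitotic genes, had 9.51 and 10.31. Of 31 S phase genes 30 were higher on replicate 2, by 0.46 in the median. The helicase subunit MCM5 had 9.11 and 9.89, and the thymidylate synthase TYMS had 10.75 and 11.43.

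Cell cycle genes were nevertheless strong on both arrays. Of the 41 genes of G2 phase and mitosis 39 were above the line (95.1%), and of the 31 S phase genes 30 (96.8%), against 50.7% of all genes. PTTG1, securin, led the mitotic list with 12.23 and 12.64, and RRM2, a subunit of ribonucleotide reductase, led the S phase list with 11.36 and 11.76. In the other groups replicate 2 was also the higher in the median of the mitotic list, by 0.28 at 1 h, 0.28 at 6 h, 0.35 at 24 h and 0.05 in transduced cells. The S phase list gave 0.17, 0.25, 0.57 and 0.06 in the same order. The part of growth state, RNA handling or array processing in these gaps was not tested.

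Genes higher on replicate 1 were fewer. CEBPD, a factor of the acute phase response, had the largest difference of all genes above the line, with 8.65 on replicate 1 and 7.58 on replicate 2. NNMT, EIF2S3, ATM, SERPINF1 and SLC67A1-AS were lower on replicate 2 by between 0.83 and 0.86, while RACGAP1, RAD54L, DTL and FOXM1 completed the 10 largest differences and were higher there. Of the stress response genes 16 of 22 were lower on replicate 2, among them HSPA5, a chaperone of the endoplasmic reticulum, with 11.23 and 10.68, and ASNS, asparagine synthetase, with 11.47 and 10.97. Of the 13 class II genes 11 were lower on replicate 2, by 0.25 in the median. A lower signal on replicate 2 was also seen in 6302 of all 11963 genes, 100 of the 142 background genes and 18 of the 19 luminal breast genes. Most of these background and luminal genes were near background, where the median difference was -0.05. Among genes above the line it was 0.02 over all genes, -0.20 in the stress list and -0.14 in the class II list. These differences were not tested.

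**Figure D5:**
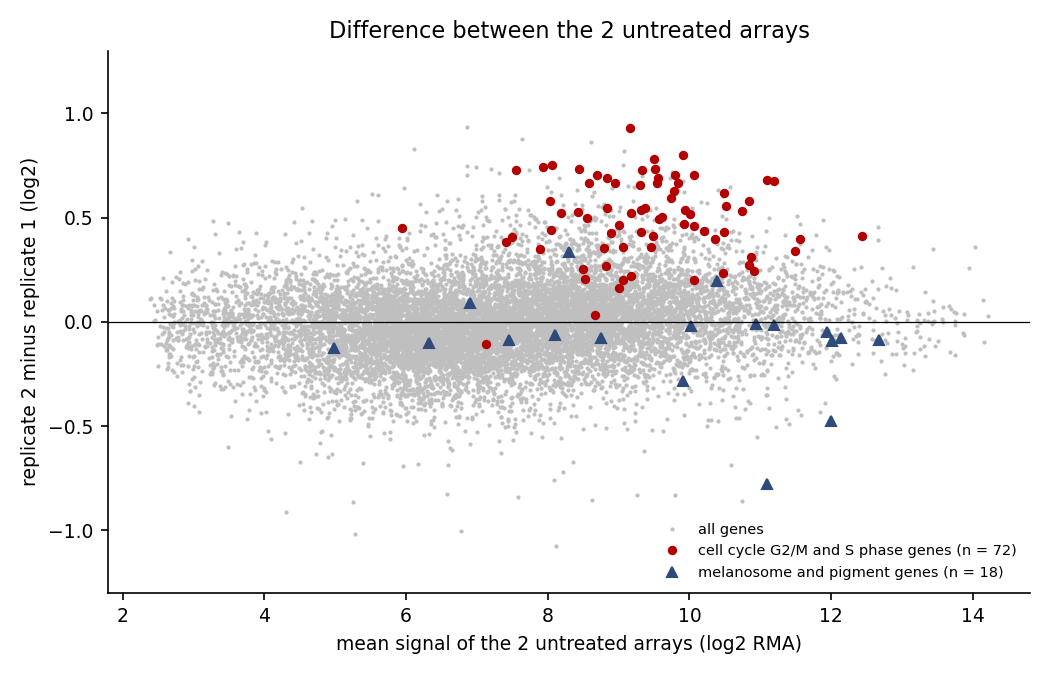
Difference between the untreated arrays, replicate 2 minus replicate 1 (y axis, log2), against mean signal (x axis, log2 RMA) for all genes (grey), the 72 cell cycle genes (red circles) and the 18 melanosome and pigment genes (blue triangles). All but 1 of the cell cycle genes lie above 0, and PMEL and MLANA are the lowest triangles.

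Most genes above the line in untreated cells were also above it on the other arrays of the series. Of the 6071 genes 5455 (89.9%) passed on all 8 other arrays and 0 on none of them, with the line set on each array from the same background genes. TYR had 12.17 and 12.10 in untreated cells and lay between 11.57 and 12.14 on the other 8 arrays. SOX10 lay between 11.29 and 11.64 there, a range that holds both untreated values.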

How the data were processed

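RNA of untreated MDA-MB-435 cells was measured on 2 arrays of a series of 10. The authors summarized and normalized the hgu133a data with RMA in the affy package, so the deposited values are log2 signals already normalized between arrays. Versions are not given in the sources used here. The study also dropped probe sets by presence calls, a step that the deposited table does not contain and that was not repeated. No further normalization was applied.

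Of 22283 probe sets, 68 were controls. Of the others, 19065 had 1 gene symbol in the platform annotation, 1043 several and 2107 none, and only those with 1 symbol were used, which gave 11963 genes. Of 164 background genes listed, 142 were measured. The members and gene lists were chosen with earlier results of these data known. Genes were named by a fixed rule: 7 genes of interest, the 20 strongest, the 10 largest differences between the arrays, up to 6 of the strongest and 4 of the weakest members of each list, and any member of the melanocyte, luminal breast and receptor lists. A few further members, such as PECAM1, VWF and GFAP, were named after their values were seen.

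With 2 arrays a group and no comparison between groups, levels were described without a test. The number of arrays limits the precision. Scripts ran in Python 3.11.15 with numpy 2.4.6 and were tested on simulated arrays. Expressed and silent genes lay well apart in the simulation, so it does not show how well the line parts genes close to it. The alternatives were other background lines, other choices of probe sets, other scalings of the arrays and leaving out each array. The Illumina arrays of the same RNA were not analysed here.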

Additional observations from a re-analysis of the deposited data

How the results depend on the processing

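The count of genes above the line was 6071. It was within 1.5 times of this under the other lines, probe set choices and single arrays, but 3831 of 8369 without probe sets marked for possible cross-hybridisation or several transcripts, where fewer genes are measured. The melanosome list gave 15 of 18, between 13 and 15 under the other lines, probe set choices and single arrays, and 10 of 13 without marked probe sets. The melanocyte transcription factors gave 8 of 8, but 3 of 8 with the lowest probe set of each gene (37.5% against 42.3% of all genes) and 5 of 5 without marked probe sets. The luminal breast list gave 6 of 19, but 3 of 19 with the line at the 99th percentile or with the mean of all probe sets, 2 of 19 with the lowest probe set and 1 of 12 without marked probe sets. The receptor list gave 15 of 51, but 9 of 51 with the line at the 99th percentile or the mean, 5 of 51 with the lowest probe set and 7 of 38 without marked probe sets. MLANA, whose mean signal by its highest probe set lay over 98.6% of genes, had 10.72 as the mean of its probe sets and 9.44 without marked ones, over 96.4% and 89.5% of genes. SOX10 had 11.46, against 10.95 as the mean, and MET had 9.12, against 8.19 as the mean and 8.49 without marked ones. PMEL has no value without marked probe sets. The SD between the arrays was between 0.175 and 0.190 under all scalings and gene choices, and the median difference of the mitotic list between 0.47 and 0.55. No paired test was run, since levels were described without a test. Differences between replicates 1 and 2 of each group are given as values only. Signals under about 7 cannot be told from background, and 2 arrays give no estimate of spread for a single gene that can be relied on.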

Other observations

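Some further families were measured in untreated cells. Of 32 nuclear hormone receptors 14 were above the line (43.75%), led by NR2F6 with 9.97 on replicate 1 and 10.10 on replicate 2 and by the retinoid receptor RXRG with 9.23 and 9.18. The vitamin D receptor VDR was little over the line with 7.38 and 7.40, and RORA was lowest with 3.49 and 3.53. Of 25 tetraspanins, membrane proteins of endosomes and the cell surface, 13 were above the line, about the share of all genes (50.7%). CD63, a protein of late endosomes and melanosomes, had 13.12 and 12.97, and CD9 had 12.53 and 12.64. Of 17 S100 genes 6 were above the line (35.3%), and S100A10 was the strongest with a mean signal of 12.11, while S100A4 was near background with 6.17 and 6.24.

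Immediate-early genes, which growth factors induce within the hour, were measurable without added HGF. Of 24 genes 17 were above the line, 70.8% against 50.7% of all genes. IER3 led with 11.90 and 12.15 and JUND had 11.45 and 11.58, while FOS had 8.18 and 7.69, EGR1 had 7.78 and 7.28 and EGR3 had 3.87 and 3.96. Of 22 stress response genes 21 were above the line (95.5%). ATF4, the factor of the amino acid and endoplasmic reticulum stress response, was at 11.92 and 12.16 and its target TRIB3 at 10.93 and 10.47.

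Of the 142 background genes 6 were above the line in untreated cells, which are SFTPC, CYP3A4, ACTN2, NPPA, TTR and MYOG, with SFTPC the highest at 8.31 and 8.04. The genes AOC4P, COL7A1 and RASAL1 were near background on both untreated arrays and above the line on all 8 others, but their untreated means of 7.13, 7.15 and 7.15 lay just under the line, and none exceeded 7.55 on any array.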
